A study of Mus musculus with 6 samples.

Results

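The genes described here mark the CD8 T cell and natural killer (NK) cell lineages. They were taken as a list of 10 mouse symbols, Cd8a, Cd8b1, Klrd1, Klrk1, Klrc1, Klrb1c, Ncr1, Eomes, Crtam and Xcl1. All 10 were found among the 35602 genes of a count table and in 2 single-library tables. Splenic CD4+ T cells were profiled by RNA-seq after culture with MAPK13-IN-1 or with DMSO. MAPK13 (p38 delta) is a stress-activated kinase, and MAPK13-IN-1 is a small molecule sold as its inhibitor. The 6 libraries formed 2 groups of 3, and the series text gave 72 h of stimulation with antibodies against CD3 and CD28 for both groups.

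CD8 is a surface coreceptor made of an alpha and a beta chain that binds class I MHC beside the T cell receptor, and most mature T cells keep either CD8 or CD4. NK cells carry a set of lectin-like and immunoglobulin-like receptors that read class I molecules and stress-induced ligands on other cells. Cells with a cytotoxic programme share transcription factors, adhesion molecules and chemokines across both lineages, and some activated CD4 T cells use parts of that programme.

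DMSO replicates 2 and 3 were wild-type spleen cells stimulated through CD3 and CD28 in RPMI medium with 10% serum, with 0.1 µl DMSO added at day 1. MAPK13-IN-1 replicates 2 and 3 were wild-type cells cultured in the same way, with 17.1 µM inhibitor added at day 1. The labels of DMSO replicate 1 and MAPK13-IN-1 replicate 1 named spleen, CD4+ T cells and the agent, with no genotype, dose or day of addition. Their titles carried no replicate number, and replicate 1 is the number used here. All 6 libraries shared the spleen as source and the stimulation, and unstimulated cells were not analysed here. The series text called the cells sorted, whereas the study's methods gave a CD4 isolation kit. With 1 compound and no kinase-deficient cells among these libraries, effects of the compound on MAPK13 and on other targets cannot be told apart. The labels did not state separate cultures or animals, so p-values measure only the spread between these samples.

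Replicates 2 and 3 came as counts per gene from poly-A-selected libraries. Summed over genes, DMSO replicates 2 and 3 held 26874805 and 28487403 counts, and inhibitor replicates 2 and 3 held 33854760 and 32617702. Levels are given in CPM, counts scaled to library size with TMM factors, and a count of 3 was worth 0.0845 to 0.116 CPM in these libraries. A stranded kit was used for the replicate 1 pair, which came as values that were read as FPKM, fragments scaled to gene length and library size, with unknown depth. It was normalized apart from the count table, so its values are given beside the counts and were not pooled with them.

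In the count table, the CD8 chains and Crtam were lower with the inhibitor and Klrk1 was higher. A filter on low counts left 8 of the 10 genes for the test, and Klrb1c and Ncr1 did not pass it. Of these 8, 4 were called at an adjusted p under 0.05 by edgeR's quasi-likelihood test (Benjamini-Hochberg adjustment over all genes), beside 63.8% of all 16269 genes tested. Of the 8, 3 were called lower, where 32.3% of all genes were, and 1 was called higher, where 31.5% of all genes were. That near-even split of all genes, 5122 higher and 5252 lower, became 6176 and 4302 when library totals replaced the TMM factors. The groups of 2 libraries did not overlap in CPM for 5 of the 8, beside 83.0% of all genes tested. The median log2 fold change of the 8 was −0.06, and that of all genes tested was 0.01. Together the 10 genes held 718 and 799 counts with DMSO and 550 and 637 with the inhibitor.

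**Figure D1:**
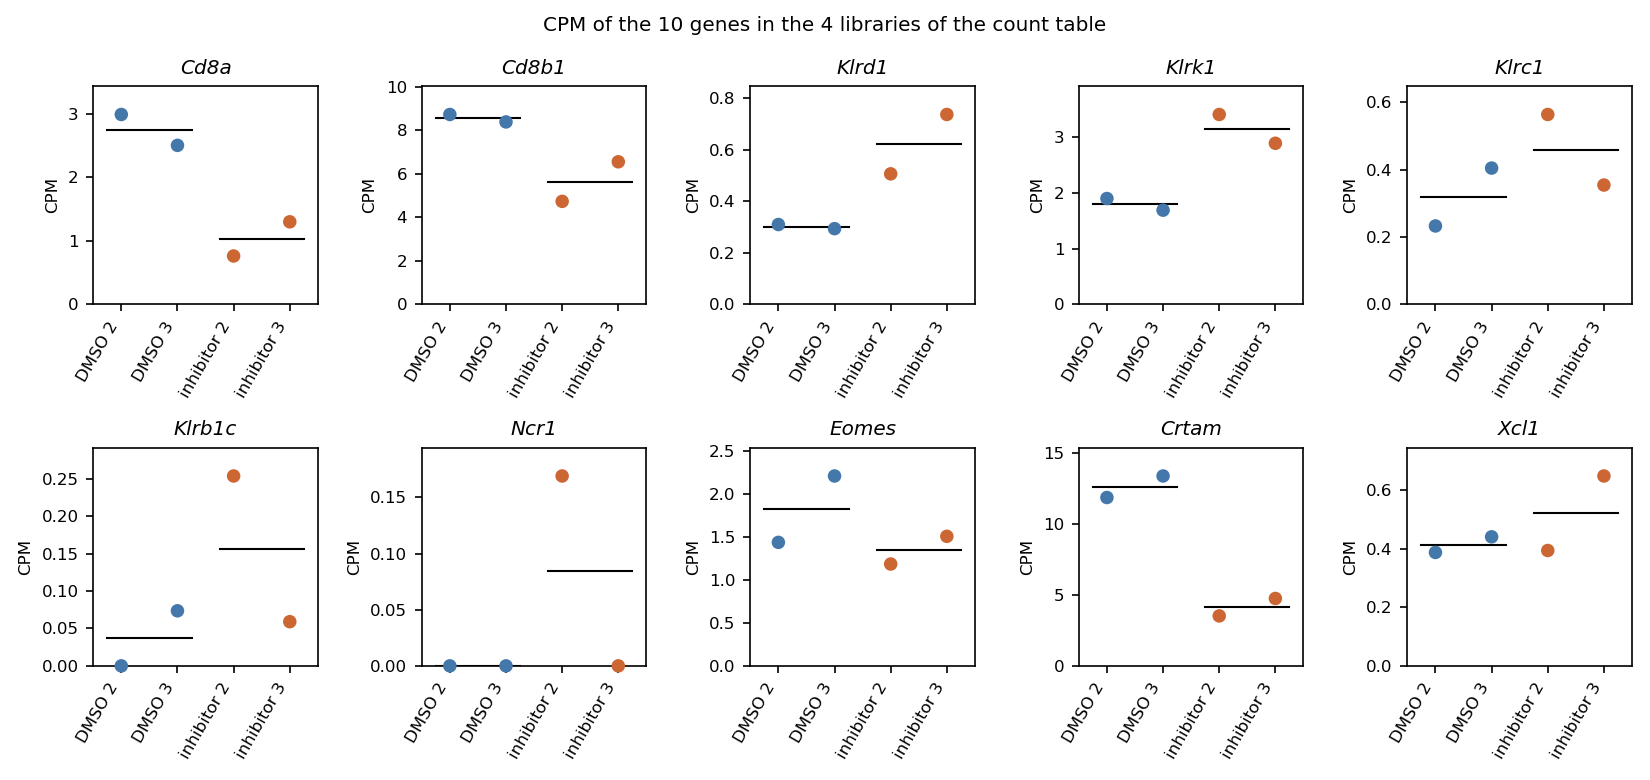
CPM of each gene (vertical axes, each from 0) in the 4 libraries of the count table, with DMSO-treated libraries in blue and inhibitor-treated libraries in orange. Points are libraries and lines are group means; Cd8a, Cd8b1 and Crtam sit lower in both inhibitor libraries, and Klrk1 and Klrd1 sit higher.

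Cd8a encodes the CD8 alpha chain, which can also form a homodimer. It had 77 counts in DMSO replicate 2 and 68 in DMSO replicate 3, against 27 and 44 in inhibitor replicates 2 and 3. In CPM these were 2.99 and 2.50 with DMSO and 0.761 and 1.299 with the inhibitor. Both inhibitor libraries lay below both DMSO libraries. The log2 fold change of Cd8a was −1.41 (SE 0.303, 95% interval −2.09 to −0.74) and the Benjamini-Hochberg adjusted p was 0.00208 (edgeR quasi-likelihood test). In bulk samples such as these, fewer cells of a type and less RNA per cell cannot be told apart.

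Cd8b1 encodes the beta chain, which reaches the cell surface only with the alpha chain. It had 225 and 228 counts with DMSO, against 168 and 222 in inhibitor replicates 2 and 3. Scaled to library size, these were 8.73 and 8.38 CPM with DMSO and 4.73 and 6.55 CPM with the inhibitor. The raw counts of inhibitor replicate 3 lay just below those of the DMSO libraries, and the gap was wider after scaling. Cd8b1 had a log2 fold change of −0.60 (SE 0.174, 95% interval −0.99 to −0.21) and the Benjamini-Hochberg adjusted p was 0.0115 (edgeR quasi-likelihood test). Without inhibitor replicate 2 the log2 fold change was −0.38, and without inhibitor replicate 3 it was −0.86; Cd8b1 was called in both fits. Of its 50-base stretches, 6.28% also occur in other genes.

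A ratio within a library does not depend on library scaling, so the CD8 chains were also set against Cd4, the coreceptor in the name of these cells. Cd4 itself had 275 and 276 CPM in the DMSO libraries and 267 and 283 CPM in the inhibitor libraries. There were 10.9 and 9.07 Cd8a counts per 1000 Cd4 counts with DMSO and 2.85 and 4.59 with the inhibitor. The exact binomial 95% intervals ran from 7.04 to 13.6 over the DMSO libraries and from 1.88 to 6.16 over the inhibitor libraries. These intervals did not overlap between the groups. They cover counting error only, and the ratios are not corrected for gene length, so they compare libraries and not genes.

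Cd8b1 gave 31.8 and 30.4 counts per 1000 Cd4 counts with DMSO, against 17.7 and 23.1 with the inhibitor. The lower bound of DMSO replicate 3, 26.5, lay close to the upper bound of inhibitor replicate 3, 26.4. Set against Cd3e, a chain of the T cell receptor complex carried by T cells of both lineages, the order changed. This comparison, like the other ratios below, was chosen after the values were seen. Cd8a had 28.4 and 24.3 counts per 1000 Cd3e counts with DMSO and 21.8 and 28.4 with the inhibitor, so the groups overlapped. Cd8b1 had 82.9 and 81.3 counts per 1000 Cd3e counts with DMSO and 135 and 143 with the inhibitor, so both inhibitor libraries were higher. Cd3e itself had 105 and 103 CPM with DMSO and 34.9 and 45.8 CPM with the inhibitor. Its log2 fold change was −1.37 (SE 0.107) and the Benjamini-Hochberg adjusted p was 2.05e-06 (edgeR quasi-likelihood test).

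The beta chain also outnumbered the alpha chain by a different margin in the groups. Per Cd8a count there were 2.92 and 3.35 Cd8b1 counts with DMSO, against 6.22 and 5.05 with the inhibitor. The exact 95% intervals were 2.25 to 3.84 and 2.55 to 4.46 with DMSO. With the inhibitor they were 4.13 to 9.72 and 3.64 to 7.14. The point values of the inhibitor libraries were both higher, whereas the intervals of the groups overlapped. In the replicate 1 pair the ratio ran the other way, at 25.7 with DMSO and 14.2 with the inhibitor in FPKM.

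**Figure D2:**
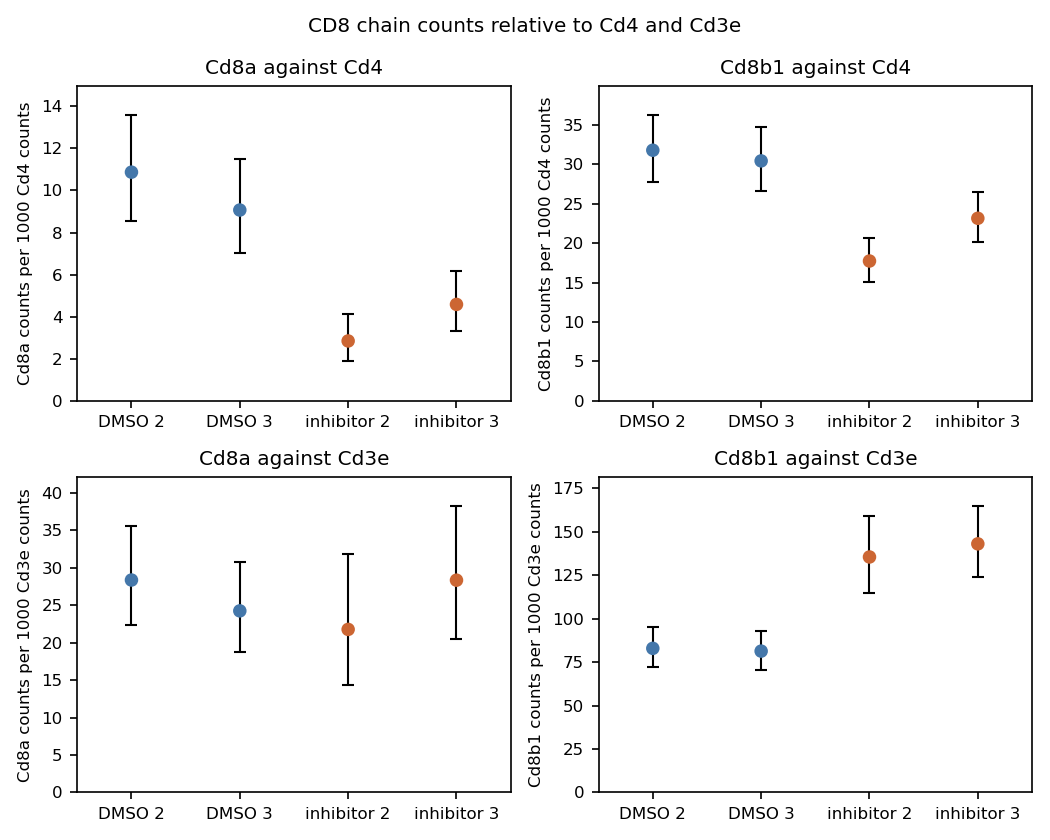
Counts of Cd8a and Cd8b1 per 1000 counts of Cd4 (upper panels) and of Cd3e (lower panels) in each library of the count table, with exact binomial 95% intervals as bars. Against Cd4 both chains were lower in the inhibitor libraries; against Cd3e the Cd8a values overlapped between the groups and the Cd8b1 values were higher with the inhibitor.

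Klrk1 encodes NKG2D, an activating lectin-like receptor for stress-induced ligands that is found on NK cells, on CD8 T cells and on some activated CD4 T cells. Its counts were 49 and 46 with DMSO and 121 and 98 with the inhibitor. These were 1.90 and 1.69 CPM with DMSO and 3.41 and 2.89 CPM with the inhibitor. Both inhibitor libraries lay above both DMSO libraries. Klrk1 had a log2 fold change of 0.81 (SE 0.227, 95% interval 0.31 to 1.32) and the Benjamini-Hochberg adjusted p was 0.00970 (edgeR quasi-likelihood test). Without DMSO replicate 3 it was 0.72, and the Benjamini-Hochberg adjusted p was 0.0605 (edgeR quasi-likelihood test), so the call was lost without that library. DESeq2, an alternative count test, gave 0.83 with a Benjamini-Hochberg adjusted p of 0.0568; over all alternatives, with edgeR's quasi-likelihood test for the rest, the adjusted p ran from 0.00150 to 0.0605.

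NKG2D signals through the adaptor DAP10, encoded by Hcst. There were 0.193 and 0.174 Klrk1 counts per Hcst count with DMSO, against 1.12 and 0.557 with the inhibitor. Both inhibitor libraries were higher in this ratio, and they differed from each other by more than the DMSO libraries did. Hcst had 9.85 and 9.74 CPM with DMSO and 3.04 and 5.19 CPM with the inhibitor, so receptor and adaptor counts moved in opposite directions.

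Klrd1 encodes CD94, which pairs with NKG2 chains to read the class I-like molecule Qa-1. It had 8 counts in each DMSO library, against 18 and 25 in inhibitor replicates 2 and 3. Scaled, these were 0.310 and 0.294 CPM with DMSO and 0.507 and 0.738 CPM with the inhibitor. The groups did not overlap, but every library had at most 25 counts. For Klrd1 the log2 fold change was 1.03 (SE 0.469, 95% interval −0.01 to 2.07), and its Benjamini-Hochberg adjusted p of 0.0766 (edgeR quasi-likelihood test) did not pass the threshold.

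Klrc1 encodes NKG2A, the inhibitory chain that pairs with CD94. It had 6 and 11 counts with DMSO and 20 and 12 with the inhibitor, or 0.233 and 0.404 CPM against 0.564 and 0.354 CPM. The groups overlapped, and inhibitor replicate 2 was the highest library. The log2 fold change was 0.52 (SE 0.518) and the Benjamini-Hochberg adjusted p was 0.401 (edgeR quasi-likelihood test). It was 0.14 without inhibitor replicate 2 and 0.96 without DMSO replicate 3. Klrc1 counts are uncertain for a further reason, since 38.6% of its 50-base stretches also occur in other genes, most of them in the paralog Klrc2 (36.6%). Per Klrd1 count there were 0.750 and 1.38 Klrc1 counts with DMSO and 1.11 and 0.480 with the inhibitor, so this ratio overlapped between the groups.

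Klrb1c encodes NK1.1, a marker of NK cells in some mouse strains, and Ncr1 encodes NKp46, an activating receptor of NK cells. Klrb1c had 0 and 2 counts with DMSO and 9 and 2 with the inhibitor. Over each group, 11 counts with the inhibitor against 2 with DMSO gave a ratio of 4.20, with a counting interval of 0.917 to 39.0. The interval includes equal levels, and inhibitor replicate 2 supplied most of the counts. Of its 50-base stretches, 12.4% are shared with the overlapping gene Gm44511, so part of the counts could belong to either.

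Ncr1 had 0 counts in both DMSO libraries, 6 in inhibitor replicate 2 and 0 in inhibitor replicate 3. A count of 0 allowed up to 0.116 CPM in DMSO replicate 2, 0.110 CPM in DMSO replicate 3 and 0.0885 CPM in inhibitor replicate 3. Inhibitor replicate 2, at 0.169 CPM, was the only library of the 4 with a count. A difference between the groups was not detectable at this depth.

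Eomes encodes a T-box transcription factor of the cytotoxic programme in CD8 T cells and NK cells. It had 37 and 60 counts with DMSO and 42 and 51 with the inhibitor. In CPM these were 1.43 and 2.21 with DMSO and 1.18 and 1.51 with the inhibitor. The groups overlapped, because DMSO replicate 2 lay below inhibitor replicate 3. The log2 fold change was −0.44 (SE 0.304, 95% interval −1.12 to 0.23) and the Benjamini-Hochberg adjusted p was 0.225 (edgeR quasi-likelihood test). Without DMSO replicate 2 the value was −0.73, and without DMSO replicate 3 it was −0.10. Exons of the opposite-strand gene Gm33460 overlap those of Eomes.

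Crtam encodes an immunoglobulin-family adhesion molecule of activated cytotoxic lymphocytes that binds Cadm1 and is also carried by a subset of activated CD4 T cells. With DMSO it had the largest counts of the 10 genes, 306 and 364, against 125 and 161 with the inhibitor. Scaled to library size, it had 11.9 and 13.4 CPM with DMSO and 3.52 and 4.75 CPM with the inhibitor. Both inhibitor libraries lay far below both DMSO libraries, and the gap exceeded the spread within either group. For Crtam the log2 fold change was −1.61 (SE 0.168, 95% interval −1.98 to −1.24) and the Benjamini-Hochberg adjusted p was 1.51e-05 (edgeR quasi-likelihood test). Its ligand gene Cadm1, named after its values were seen, had 15 and 0 counts with DMSO and 2 and 3 with the inhibitor and was not tested.

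Xcl1 encodes lymphotactin, a chemokine that draws dendritic cells carrying the receptor Xcr1. It had 10 and 12 counts with DMSO and 14 and 22 with the inhibitor, or 0.388 and 0.441 CPM against 0.394 and 0.649 CPM. Inhibitor replicate 2 lay between the DMSO libraries, and inhibitor replicate 3 was the highest. For Xcl1 the log2 fold change was 0.32 (SE 0.466) and the Benjamini-Hochberg adjusted p was 0.564 (edgeR quasi-likelihood test). Without inhibitor replicate 3 it was −0.08. The opposite-strand gene Gm20743 overlaps Xcl1 and shares 10.8% of its 50-base stretches. The counting was not stated to use strand, so reads of this overlap and of that at Eomes cannot be told apart.

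Levels of different genes can be compared only per length, and CPM was divided by the annotated exon length of each gene for this. With DMSO, Cd8b1 stood highest at 5.77 ± 0.163 CPM per kilobase (SD, n = 2), followed by Crtam at 2.46 ± 0.209. Xcl1 at 0.793 ± 0.0723 and Cd8a at 0.754 ± 0.0944 came next and overlapped each other. Below them stood Eomes at 0.438 ± 0.131, Klrk1 at 0.250 ± 0.0206, Klrd1 at 0.236 ± 0.00887 and Klrc1 at 0.161 ± 0.0612. Klrk1 and Klrd1 did not differ beyond their spread, and Klrb1c and Ncr1 were at or near 0. With the inhibitor the order was Cd8b1 at 3.80 ± 0.867, Xcl1 at 0.998 ± 0.344 and Crtam at 0.806 ± 0.169 CPM per kilobase. Xcl1 and Crtam overlapped there. Cd8a, 4th of the 10 per length with DMSO, was 7th with the inhibitor at 0.283 ± 0.105, below Klrd1 at 0.486 ± 0.127 and Klrk1 at 0.439 ± 0.0509, which overlapped each other. It also overlapped its neighbours in that order, Eomes at 0.324 ± 0.0548 and Klrc1 at 0.231 ± 0.0746.

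The replicate 1 pair has 1 library per group, so its differences have no replicate check. All 10 genes were higher in inhibitor replicate 1 than in DMSO replicate 1, beside 62.3% of the 21936 genes above 0 in either library. On the log2(FPKM + 1) scale, which understates the change of low genes, 4 of the 10 were more than 2-fold higher, beside 3.73% of all these genes. With 0.1 in place of 1 as the added constant, 8 of the 10 and 12.1% of all genes were more than 2-fold higher. The median log2 ratio was 0.64 over the 10 genes and 0.04 over all genes.

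Crtam had 5.10 FPKM in DMSO replicate 1 and 19.2 FPKM in inhibitor replicate 1, a log2 ratio of 1.73. Cd8b1 had 3.36 and 7.84 FPKM, a log2 ratio of 1.02, and Cd8a had 0.131 and 0.553 FPKM, a log2 ratio of 0.46. With 0.1 as the added constant the log2 ratios were 1.89 for Crtam, 1.20 for Cd8b1 and 1.499 for Cd8a. These genes were called lower with the inhibitor in the count table and were higher with it in this pair. Among the 4 genes called in the count table, 3 pointed the other way in the pair, beside 33.8% of 10138 called genes with a value above 0 there. Per 1000 units of Cd4 in FPKM, Cd8a stood at 1.11 with DMSO and 3.79 with the inhibitor, and Cd8b1 stood at 28.6 and 53.7, both the reverse of the count table. Per 1000 units of Cd3e, Cd8a stood at 1.76 and 7.88 in FPKM, where the groups of the count table overlapped. Cd8b1 stood at 45.1 and 112 per 1000 of Cd3e, higher with the inhibitor as it was in the count table.

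Xcl1 had the largest ratio in the pair, from 0.282 to 9.83 FPKM, a log2 ratio of 3.08. Eomes went from 0.554 to 4.23 FPKM, a log2 ratio of 1.75. Neither gene was called in the count table. Klrk1 had 0.433 and 0.990 FPKM, Klrd1 had 0.253 and 0.753 FPKM and Klrc1 had 0.693 and 1.92 FPKM. The lectin-like receptors were thus higher with the inhibitor in the pair, the direction of their fitted values in the count table. Ncr1 had 0.0461 and 0.0804 FPKM, and Klrb1c was listed at 0 with DMSO and at 0.0385 FPKM with the inhibitor. Library kit and normalization differed between the pair and replicates 2 and 3, so their parts in the opposite directions cannot be told apart from that of the cells. The labels of the pair were taken as deposited, and whether they are assigned to the right files was not tested.

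**Figure D3:**
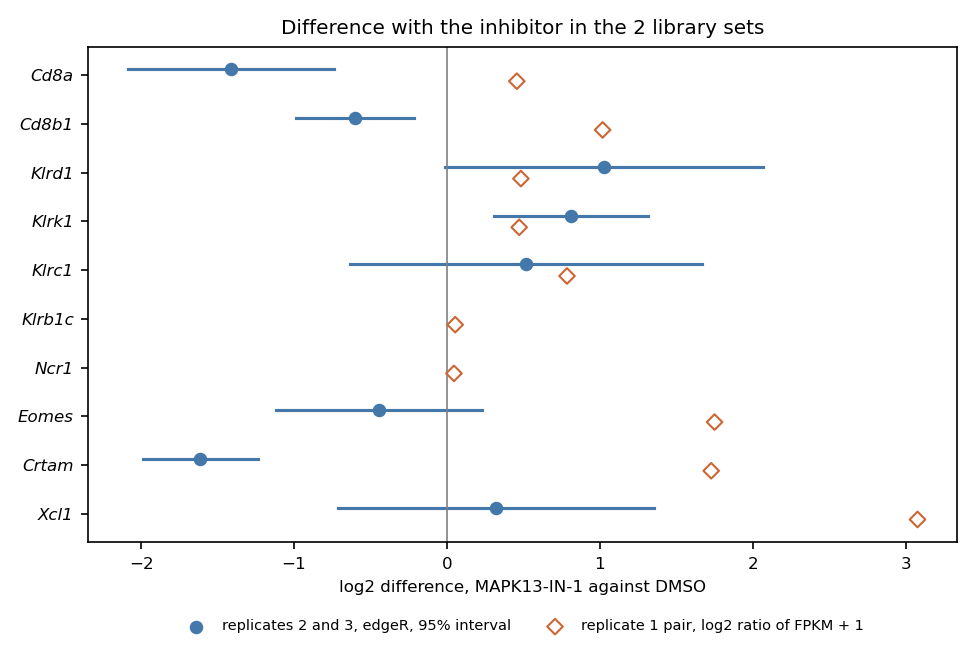
Log2 difference between inhibitor-treated and DMSO-treated libraries (horizontal axis) for each gene (vertical axis). Filled points with bars are edgeR log2 fold changes with 95% intervals from replicates 2 and 3, and open diamonds are log2 ratios of FPKM + 1 in the replicate 1 pair; for Cd8a, Cd8b1 and Crtam the points and diamonds lie on opposite sides of 0.

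Of the 10 genes, 6 lie on chromosome 6. In GRCm38, Cd8b1 (chr6:71322788-71337494, plus strand) and Cd8a (chr6:71373427-71379173, plus strand) are separated by 35932 bases, and both were called lower with the inhibitor. Klrd1 (chr6:129591782-129598775, plus strand), Klrk1 (chr6:129610323-129623864, minus strand) and Klrc1 (chr6:129666015-129678973, minus strand) lie close together in the NK gene complex, with 11547 bases between Klrd1 and Klrk1 and 42150 between Klrk1 and Klrc1, where the paralogs Klrc3 and Klrc2 lie. Klrb1c (chr6:128778485-128789215, minus strand) opens the stretch of the complex that these 4 genes span. All 3 of the tested receptor genes had fitted values above 0, and Klrk1 alone of them was called. Klrd1 (8 and 8 counts with DMSO) and Klrc1 (6 and 11) passed the low-count filter only with the inhibitor libraries. Their entry to the test was therefore tied to higher values there, which limits what their shared sign shows. The remaining genes are spread out, with Ncr1 at chr7:4337724-4345164 (plus strand), Crtam at chr9:40969691-41004628 (minus strand), Eomes at chr9:118478212-118486132 (plus strand) and Xcl1 at chr1:164931644-164935527 (minus strand).

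From Klrb1c to Klrc1 the stretch covers 900489 bases and 51 annotated genes, of which 18 were tested. In this stretch, set by the positions of the 4 receptor genes, 6 genes were called higher and 4 lower, where 31.5% and 32.3% of all genes tested were. The lower ones, named here after their values were seen, were Cd69, Clec7a, Gabarapl1 and Olr1. Clec7a lost its call with library totals, with no filter on low counts, with DESeq2 and in each fit without a library. The median log2 fold change of the 18 was 0.31.

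Promoter sequence was looked up because members at a shared locus had fitted values of the same sign. For Klrd1 and Klrc1 that sign has the filter limit given above. Windows of 250 bases before to 50 bases after the start were matched in RefSeq (GRCm38.p6) for Cd8a, Klrk1, Klrc1, Klrb1c, Ncr1, Eomes and Xcl1. The windows were searched on both strands for TGTGGT, letters bound by RUNX factors, GGTGTGA, letters of the T-box family that includes Eomes, and CAGGAAG, letters of the ETS family. Over 32851 windows of the same length, 16.8% held TGTGGT, 3.98% held GGTGTGA and 13.3% held CAGGAAG. The end of TGTGGT can overlap the start of GGTGTGA, and no matches overlapped in these windows. Klrk1, called higher, and Klrc1 and Klrb1c of the same complex each held 1 match to TGTGGT, and Ncr1 held 2. Cd8a, called lower, and Eomes held none of the 3 motifs, and Xcl1 held 1 of each. A match is a description of letters and not of binding. In the sequences below, which show 4 of the windows 5′ to 3′, capitals mark the matches, read on either strand. They cover chr6:129623815-129624114 (minus strand) for Klrk1, chr6:129678924-129679223 (minus strand) for Klrc1, chr6:71373177-71373476 (plus strand) for Cd8a and chr1:164935473-164935772 (minus strand) for Xcl1.
Klrk1: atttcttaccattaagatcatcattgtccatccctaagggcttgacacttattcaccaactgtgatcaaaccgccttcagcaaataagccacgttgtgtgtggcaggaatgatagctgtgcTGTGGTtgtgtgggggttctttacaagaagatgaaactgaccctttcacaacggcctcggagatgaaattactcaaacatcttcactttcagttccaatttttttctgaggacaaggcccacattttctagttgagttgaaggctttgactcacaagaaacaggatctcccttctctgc
Klrc1: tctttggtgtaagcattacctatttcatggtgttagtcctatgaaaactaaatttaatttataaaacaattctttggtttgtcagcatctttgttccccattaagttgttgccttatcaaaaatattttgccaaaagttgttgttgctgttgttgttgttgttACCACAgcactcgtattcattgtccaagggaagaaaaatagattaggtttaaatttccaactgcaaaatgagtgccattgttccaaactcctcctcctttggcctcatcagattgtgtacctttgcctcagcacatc
Cd8a: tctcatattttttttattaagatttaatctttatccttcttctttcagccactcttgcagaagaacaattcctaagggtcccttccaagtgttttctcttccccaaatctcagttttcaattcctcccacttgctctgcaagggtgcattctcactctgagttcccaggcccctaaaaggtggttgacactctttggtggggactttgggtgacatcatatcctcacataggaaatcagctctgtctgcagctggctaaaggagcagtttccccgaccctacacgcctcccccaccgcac
Xcl1: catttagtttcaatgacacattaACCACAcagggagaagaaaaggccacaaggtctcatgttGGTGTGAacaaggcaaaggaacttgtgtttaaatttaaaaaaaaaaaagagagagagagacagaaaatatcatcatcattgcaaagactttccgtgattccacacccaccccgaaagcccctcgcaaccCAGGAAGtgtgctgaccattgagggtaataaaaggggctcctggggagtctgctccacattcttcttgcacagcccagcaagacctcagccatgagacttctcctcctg

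The genes that work with the members were read from the same fit by lists. In that fit, 31.5% of all genes tested were called higher and 32.3% lower. Of the receptor adaptors, 0 of 6 tested were called higher and 2 lower, the NKG2D adaptor Hcst at a log2 fold change of −1.25 (SE 0.216) and Sh2d1a, the adaptor of the SLAM receptors, at −1.65 (SE 0.146). At an unadjusted p under 0.05 the same edgeR fit held 1 adaptor with a higher value, and DESeq2 called 0 higher. The median log2 fold change of the list was 0.11. Cd247, the signalling chain of NKp46 and of the T cell receptor, had a log2 fold change of 0.15 (SE 0.0637) and was not called, but was called higher with RLE factors, upper-quartile factors or library totals.

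Among the ligands and partners of the members, 5 of 9 tested were called higher and 3 lower, beside 31.5% and 32.3% of all genes tested. Their median log2 fold change was 0.67. The class I genes that CD8 and CD94 read were lower with the inhibitor. H2-K1 had 3667 and 3694 CPM with DMSO and 1857 and 1970 CPM with the inhibitor, and H2-D1 had 3253 and 3272 CPM against 1336 and 1503 CPM. H2-T23, which encodes the Qa-1 ligand of CD94 and NKG2A, had 638 and 648 CPM with DMSO and 316 and 335 CPM with the inhibitor. The NKG2D ligand genes H60b, Raet1d, Raet1e and Ulbp1 and the Xcl1 receptor gene Xcr1, named here after their values were seen as the full set called higher, made up the 5. H60b had 6 and 15 counts with DMSO against 47 and 42 with the inhibitor, and Raet1e had 10 and 9 against 41 and 53. Raet1d had 11 and 12 against 100 and 104, and Xcr1 had 0 and 4 against 27 and 16. H60b, Raet1e and Xcr1 passed the low-count filter only with the inhibitor libraries, so their being tested was tied to higher values there. With that limit, Klrk1 and the tested genes of its ligands were both higher in the inhibitor libraries of the count table.

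Of the other NK receptors, 9 of 27 genes were tested, 2 were called higher and 3 lower, beside 31.5% and 32.3% of all genes tested. Their median log2 fold change was −0.12. Of the higher genes, Klrg2, named after its values were seen, had a Benjamini-Hochberg adjusted p of 0.0493 (edgeR quasi-likelihood test) and lost its call in 7 of 11 alternatives. The other, Cd244a, which encodes the receptor 2B4, had 0.620 and 1.18 CPM with DMSO and 9.78 and 9.44 CPM with the inhibitor. Slamf7 had 105 and 97.0 CPM against 48.4 and 64.9 CPM, and Cd226 had 7.37 and 10.0 CPM against 4.96 and 5.31 CPM. Klrg1, the remaining lower gene and named after its values were seen, had 1.36 and 1.51 CPM against 0.648 and 0.236 CPM. Of the Ly49 and other lectin-like genes in that list, Klra1, Klra3, Klra5, Klra6, Klra8, Klra10, Klra17, Klrb1a and Klrh1, named after their values were seen, had 0 counts in all 4 libraries. Others of the list that were not tested, also named after their values were seen, had counts in either direction. Klrc3 had 0 and 0 with DMSO against 2 and 11 with the inhibitor, Klre1 had 0 and 0 against 3 and 5, and Klri2 had 0 and 2 against 8 and 6, whereas Klra7 had 4 and 9 against 0 and 0.

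Of the CD8 and NK transcription factors, 3 of 12 tested were called higher and 4 lower, beside 31.5% and 32.3% of all genes tested. Their median log2 fold change was −0.08. Zbtb7b, which encodes ThPOK, the factor that silences the CD8 genes in CD4 T cells, had 181 and 177 CPM with DMSO and 100 and 114 CPM with the inhibitor. Cd8a and Cd8b1 were lower in these inhibitor libraries too, whereas in the replicate 1 pair Zbtb7b was lower with the inhibitor (30.4 and 26.5 FPKM) and both CD8 chains were higher. Gata3 had 67.7 and 74.6 CPM against 34.5 and 32.3 CPM, and Nfil3 had 164 and 166 CPM against 99.7 and 99.6 CPM. The 3 called higher, named after their values were seen, were Runx3, Id2 and Tcf7. Runx3 had 243 and 245 CPM with DMSO and 284 and 303 CPM with the inhibitor. Id2 had 179 and 179 CPM against 233 and 245 CPM, and Tcf7 had 158 and 164 CPM against 180 and 215 CPM. Of the cytotoxic effectors, 2 of 15 tested were called higher and 9 lower, beside 31.5% and 32.3% of all genes tested. Their median log2 fold change was −0.97. Nkg7, a granule membrane protein gene, had 21.5 and 22.8 CPM with DMSO and 2.93 and 4.16 CPM with the inhibitor. Ccl4 had 27.8 and 29.8 CPM against 3.75 and 5.19 CPM, and Il2rb had 1034 and 1067 CPM against 466 and 542 CPM. The 2 called higher, named after their values were seen, were Ccl5 and Srgn. Ccl5 had 9.97 and 8.86 CPM with DMSO and 31.5 and 38.0 CPM with the inhibitor. Srgn, the most abundant of the list, had 796 and 816 CPM against 979 and 990 CPM. Crtam, Nkg7, Ccl4 and Il2rb were thus lower together in replicates 2 and 3, and Ccl5 and Srgn were higher. In the replicate 1 pair 18 of 19 effectors and all 10 members were higher with the inhibitor, beside 62.3% of all genes above 0 in either library.

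Markers of cells that the preparation could hold were read from the same fit, in which 63.8% of all genes were called in either direction. Of the CD4 T cell markers, 7 of 8 tested were called lower, with summed levels of 1517 and 1529 CPM with DMSO and 866 and 990 CPM with the inhibitor, Cd5 being the most abundant with DMSO and Cd4 with the inhibitor. Cd4 was not called, with a log2 fold change of −0.000641 (SE 0.0544) that turned to 0.12 when library totals replaced the TMM factors. Of the NK cell markers, 10 of 11 stand in other lists too, and 0 of 5 tested were called higher and 3 lower, Gzma, Prf1 and Itga2; DESeq2 called 0 higher, and 0 had a higher value at an unadjusted p under 0.05 in edgeR. Their summed level was 26.1 and 23.8 CPM with DMSO and 10.4 and 10.5 CPM with the inhibitor, with Gzma the most abundant with DMSO, Itga2 with the inhibitor, and Klra8 at 0 in all 4 libraries. Ncr1 and Klrb1c, the members that also stand in that list, were at 0.254 CPM or below in every library. Klra7 of the same list, not tested, had 0.155 and 0.331 CPM with DMSO and 0 and 0 with the inhibitor. Among genes of gamma-delta and innate-like T cells, Sox13 was called higher and Zbtb16 lower. The call of Sox13 was lost with DESeq2 and without DMSO replicate 3, where its log2 fold change was 0.44. That of Zbtb16 was lost in 10 of 11 alternatives.

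B cell markers were present in every library, with summed levels of 920 and 905 CPM with DMSO and 1164 and 1169 CPM with the inhibitor. Of these, 7 of 8 tested were called higher, where 31.5% of all genes tested were. Pax5 was the most abundant with the inhibitor, while the B cell sum in FPKM was 44.7 in DMSO replicate 1 and 33.2 in inhibitor replicate 1. Cd8a, Cd8b1 and Crtam thus stood in the opposite direction to the B cell sum in both library sets. Of the erythroid markers, 5 of 6 tested were called higher, with sums of 7.83 and 7.43 CPM against 89.7 and 64.2 CPM and Hbb-bs the most abundant with the inhibitor. Macrophage markers had 5 of 7 tested higher, with sums of 13.4 and 12.02 CPM against 41.3 and 34.5 CPM and Cd68 the most abundant. Both sums were higher in each inhibitor library, where Cd8a, Cd8b1 and Crtam were lower. Dendritic cell markers, of which Xcr1 is also the Xcl1 receptor, had 4 of 5 tested higher and Batf3 lower, with sums of 44.9 and 45.6 CPM against 61.1 and 52.8 CPM with Batf3 the most abundant with DMSO and Zbtb46 with the inhibitor. Mast cell and basophil markers had 2 of 2 tested higher, Kit and Ms4a2, with sums of 2.95 and 2.72 CPM against 30.6 and 32.6 CPM, Kit the most abundant and Fcer1a and Mcpt8 at 0. Neutrophil markers summed to 0.233 and 0.221 CPM against 0.620 and 0.885 CPM, with Mpo the most abundant with the inhibitor, called higher (though not with DESeq2) and the only gene tested, and S100a9 at 0. The low-count filter passed Ms4a2, Mpo, Xcr1 and C1qb, the last named after its values were seen, only through the inhibitor libraries. Each had at most 6 counts in each DMSO library, so their being tested was tied to higher values with the inhibitor. In the replicate 1 pair, where all 10 members were higher with the inhibitor, FPKM sums were 888 and 844 for CD4 T cell and 6.19 and 13.1 for NK cell markers. They were 29.9 and 50.5 for dendritic cell, 3.03 and 9.77 for macrophage and 0.928 and 1.93 for erythroid markers. Neutrophil markers summed to 0.656 and 0.425 FPKM and mast cell and basophil markers to 0.0877 and 0.633 FPKM. The part of these cells in the values of Cd8a, Cd8b1, Crtam and Klrk1 was not tested.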

How the data were processed

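The authors deposited counts per gene for replicates 2 and 3; their processing notes name fastp 0.21.0, HISAT2 2.1.0, StringTie 2.1.5 and DESeq2 1.30.1 with build mm10. The replicate 1 files were deposited as values read here as FPKM, from their range; their quantifier is not given in the sources used here. Counts were fitted with edgeR 4.0.16 (R 4.3.3; TMM, filterByExpr with a minimum count of 10, quasi-likelihood test, Benjamini-Hochberg adjustment over 16269 genes) and called at an adjusted p under 0.05. DESeq2 1.42.0, other scalings, filters, thresholds, a replicate block and leaving out each library were alternatives. Loci came from GENCODE vM21. The members and lists were chosen with earlier results of these data known. Named genes were the members, Cd4, Cd3e, the 3 smallest p of each list, and whole lists of 5 or fewer tested. Of the list symbols, 9 were not found by symbol and were not analysed here. Among them were 3 CD4 T cell markers and 4 gamma-delta and innate-like T cell markers. The result of 1 further list gene is not reported here; the gene was taken out of its list after the values were seen, that list's sums are left out, and no printed list count or median includes the gene.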

Additional observations from a re-analysis of the deposited data

Results flagged for a closer look

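In replicates 2 and 3 both inhibitor libraries lay below both DMSO libraries for Cd8a, Cd8b1 and Crtam, whereas inhibitor replicate 1 lay above DMSO replicate 1, with log2 ratios of 0.46, 1.02 and 1.73 on the log2(FPKM + 1) scale (1.499, 1.20 and 1.89 with 0.1 as the added constant). The difference between the library sets was not tested, since the pair has 1 library per group.

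Of 38 other genes named by the fixed rule, called in the count table and above 0 in the pair, 15 pointed the other way there, beside 33.8% of all such called genes, and the rest, among them Hcst, Sh2d1a, Gata3 and Cd244a, pointed the same way; the difference was again untested. Of those among the 15 that were lower with the inhibitor in the count table, the effector genes Nkg7, Ccl4, Prf1 and Il2rb had log2 ratios of 3.00, 2.38, 1.06 and 0.0294 in the pair. Slamf7, Cd226 and Itga2 had 1.17, 0.59 and 0.58. The class I genes H2-D1, H2-K1 and H2-T23 had 0.37, 0.31 and 0.12. Batf3 and Cd3g had 0.42 and 0.10. The B cell genes Pax5, Blk and Ms4a1, higher with the inhibitor in the count table, had −0.66, −0.46 and −0.19. For genes named after their values were seen, the pair was read for the NKG2D ligands, Klrg2 and the lower genes between Klrb1c and Klrc1. Of these 9 called genes, 5 pointed the other way. Raet1e, higher in the count table, had −0.00860, and Cd69, Clec7a, Gabarapl1 and Olr1, lower there, had 0.46, 1.71, 0.84 and 2.22. Other genes named in that way were not included.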

How the results depend on the processing

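Cd8a, Cd8b1 and Crtam were called lower in each of the 11 alternative fits, at −1.85 to −1.07, −0.86 to −0.38 and −1.85 to −1.41 on the log2 scale. Of 86 alternative values of the 8 tested members, 83 kept direction and call, Klrk1 lost its call in 2, and Xcl1, at −0.0791 to 0.64 with a library left out, turned only without inhibitor replicate 3. Members called higher numbered 0 with DESeq2, 0 past an absolute log2 fold change of 1, and 0 to 1 with a library left out. Members called lower numbered 2 past an absolute log2 fold change of 1 and 2 at an adjusted p under 0.01 (edgeR quasi-likelihood test, Benjamini-Hochberg), Cd8b1 being the one lost at both. With 0.1 as the added constant, 8 members were more than 2-fold higher in the replicate 1 pair.

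Cd4 turned to 0.0133 with RLE factors and with DESeq2, 0.0799 with upper-quartile factors, 0.12 with library totals and 0.0443 at 10 counts in every library, and lay at −0.0503 to 0.0412 with a library left out. Library totals alone moved the median of all genes to 0.14 and the calls from 5122 higher and 5252 lower to 6176 and 4302; upper-quartile factors gave 5823 and 4633. With a library left out, Klrc1 lay at 0.14 to 0.96 and Eomes at −0.73 to −0.10.

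Other NK receptors called higher numbered 1 with no filter and with DESeq2, Klrg2 being the gene lost, and 3 at 10 counts in every library. Klrg2 also lost its call in each fit without a library. Adaptors called higher numbered 1 with RLE, upper-quartile factors, totals and 10 counts in every library, and 0 to 1 with a library left out. At 10 counts in every library, ligands called higher numbered 2, neutrophil markers 0 (also 0 with DESeq2; Mpo was the gene) and mast cell markers 1. Of the gamma-delta markers Sox13 and Zbtb16, those called higher numbered 0 with DESeq2 and 0 to 1 with a library left out; called lower they numbered 0 with RLE, upper-quartile factors, totals, no filter and DESeq2, and 0 to 0 with a library left out. B cell markers called lower numbered 0 to 1 with a library left out. The causes were not tested.

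The labels did not state whether same-numbered libraries shared an animal or culture. Their deviations had a correlation of −0.00641, which cannot settle that. With the replicate block, 10645 genes were called against 10374, members called stayed at 1 higher and 3 lower, and called higher were 1 adaptor and 1 other NK receptor; 0 gamma-delta markers were called lower. Klrd1, Klrc1, Xcl1, Klrb1c and Ncr1 had few counts, so their values are uncertain, and whether depth kept them from being called was not tested. A lone library was assumed to vary like the other group.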
